A study of Homo sapiens with 12 samples.

Results

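Of 20307 genes measured by RNA sequencing in 2 human cell lines, 10411 had a mean of at least 1 TPM (a level per transcript length and library size) in the control group of each line, and their response in the line THP-1 was set against their response in the line H1299. The genes were chosen on these control levels alone and not on any response. Another 1382 genes reached that level only in H1299, 1393 only in THP-1 and 7121 in neither. H1299 cells come from a non-small-cell carcinoma of the lung. THP-1 cells come from a monocytic leukaemia, and a phorbol ester (PMA) drives them towards a macrophage state. Each line gave 2 groups of 3 libraries. The H1299 groups carry the genotype labels WT and DCBLD2 overexpression. Both THP-1 groups are WT, had PMA for 24 h and were then kept for 48 h with H1299 material, from H1299-control in one group and from H1299-DCBLD2 in the other, so no THP-1 library is free of PMA or of H1299 exposure. The design text calls this a co-culture and the sample labels name a supernatant, so whether the cells touched is unclear. The sources used here name neither the construct nor whether the overexpressing line is 1 clone, and they do not say that the 3 libraries of a group were grown separately, so the p-values cover the spread among these libraries alone, part or all of which may be technical.

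DCBLD2 encodes a transmembrane receptor-like protein of the neuropilin-like family. Its own counts go against the H1299 labels. In H1299 it stood at 247, 148 and 196 TPM in the 3 libraries labelled control and at 105, 98.2 and 92.5 TPM in the 3 libraries labelled DCBLD2, so that every library labelled DCBLD2 was below every library labelled control. THP-1 held 11.4, 12.2 and 12.01 TPM against 6.53, 6.61 and 6.27 TPM. The log2 fold change was -1.27 ± 0.17 in H1299 (adjusted p = 0.00284) and -0.81 ± 0.052 in THP-1 (adjusted p = 3.18e-13). The groups are therefore called labelled control and labelled DCBLD2, and a change is the log2 fold change of labelled DCBLD2 against labelled control, ± its SE. If the 2 H1299 labels were exchanged, every H1299 direction below would turn, and genes described here as moving in opposite directions would be those moving in like directions. The difference of responses of a gene is its THP-1 change minus its H1299 change, so a positive value means that the gene went higher, or less low, in THP-1 than in H1299. With the H1299 labels exchanged, the values and calls of this difference would have to be computed anew.

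A tumour line and the macrophages exposed to it share the basic programmes of a human cell, and several of these have well-known outputs in RNA. The circadian clock is a feedback loop in which the CLOCK or NPAS2 protein with BMAL1 activates genes of its own repressors (PER, CRY, NR1D and others) through E-box sequences. The unfolded protein response raises chaperones of the endoplasmic reticulum (ER), such as HSPA5, when folding there is under load. Interferons raise genes that carry response elements read by STAT and IRF factors.

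The libraries held between 14578887 and 26787853 estimated reads. Replicates lay far closer together in THP-1 than in H1299, with a common coefficient of variation of 1.96% against 13.3%. The lines were told apart by their markers: the keratin KRT18 averaged 1379 TPM in the H1299 control group and was at 0.204 TPM in that of THP-1, and the leukocyte gene PTPRC averaged 23.6 TPM in THP-1 control and was at 0 in all H1299 libraries. The 20 H1299-like markers summed to 5345 to 5851 TPM (labelled control) and 5938 to 6357 TPM (labelled DCBLD2) in H1299, and to 717 to 731 and 508 to 521 TPM in THP-1, where KRT8 averaged 0.283 and 0.524 TPM. The 15 macrophage markers summed to 5534 to 5593 and 7980 to 8045 TPM in the 2 THP-1 groups, and to 143 to 145 and 201 to 205 TPM in H1299, mostly from CD68 (136 and 198 TPM). Of the markers of other cells, those of T cells, B cells and fibroblasts summed to at most 4.66 TPM in any library, and those of endothelium to 140 to 174 TPM in THP-1. Nearly all of this endothelial sum came from PECAM1 (168 and 145 TPM), with VWF at 3.88 and 1.09 TPM and CDH5 at 0 and 0.081 TPM. In THP-1 the sum of the H1299-like markers was thus lower and that of the macrophage markers higher in labelled DCBLD2, but neither list moved as one. Of the 15 H1299-like markers tested in THP-1, 8 fell and 2 (MET and KRT7) rose. Most of their THP-1 sum came from ITGA3 (203 against 113 TPM), CAV1 (146 against 110 TPM) and TNS3 (263 against 202 TPM), and TNS3 averaged only 4.01 TPM in H1299 control. KRT18, too low in THP-1 to be tested, went from 0.204 to 1.01 TPM there. Of the 15 macrophage markers 12 rose and 3 fell in THP-1, ITGAM by 0.87, LAPTM5 by 0.17 and CD68 by 0.083. The part of these markers in the THP-1 results below was not tested. Because these are bulk libraries, fewer cells of a kind and less RNA per cell cannot be told apart.

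Across the 10411 genes the lines moved in opposite directions about as often as in like directions. The difference of responses was called for 4808 genes (46.2%), positive in 2384 (22.9%) and negative in 2424 (23.3%). Among all 14244 genes tested in the 12 libraries, 19.3% were positive and 19.5% negative. The counts of each gene list below are to be read beside the shares of the 10411 genes. In THP-1, 3788 of the genes rose and 3581 fell (background 34.5% up and 33.6% down), and in H1299, 1059 rose and 1127 fell (background 10.3% up and 10.6% down). Of the 1597 genes called in both lines, 818 (51.2%) went in opposite directions with a called difference and 779 (48.8%) in like directions. Opposite movers were 434 genes that rose in THP-1 and fell in H1299 (background 3.92% of the 11631 genes tested in all 3 fits) and 384 that fell in THP-1 and rose in H1299 (3.64%). Like movers were 409 genes that rose in both (3.83%) and 370 that fell in both (3.34%), and in 226 of these the size of the change differed between the lines.

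The direction of a gene in H1299 went with nearly the same THP-1 shares either way. Of the genes that rose in H1299, 38.6% rose and 36.3% fell in THP-1. Of those that fell in H1299, 38.5% rose and 32.8% fell there, beside 36.4% and 34.4% of all the genes. Over 10396 genes with a change in both lines, Pearson's r between the 2 changes was -0.0061 and Spearman's rho -0.024, given as a description because genes share their libraries and are not independent. The called differences were mostly below a doubling, with 524 at a log2 value of 1 or more and 403 at -1 or less. A further 1445 genes with a called difference rose and 1578 fell in THP-1 without a call in H1299, 227 rose and 279 fell in H1299 without a call in THP-1, and 235 had a called difference with neither line called. In 2832 genes 1 line alone was called but the difference was not, so these are not shown to differ between the lines.

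The counts of opposite and like movers rested on single H1299 libraries. Without H1299 labelled DCBLD2 replicate 2 the 434 and 384 opposite movers became 88 and 59 and the 409 and 370 like movers 30 and 96. Without labelled DCBLD2 replicate 1 they became 230, 170, 145 and 225, and without labelled control replicate 3 282, 219 and 213 for the first 3 classes. Leaving out labelled DCBLD2 replicate 3 gave 240 genes that fell in THP-1 and rose in H1299, and leaving out labelled control replicate 1 gave 724 genes that rose in both. The share in opposite directions stayed between 44.3% and 53.8% over the 12 libraries left out in turn.

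**Figure D1:**
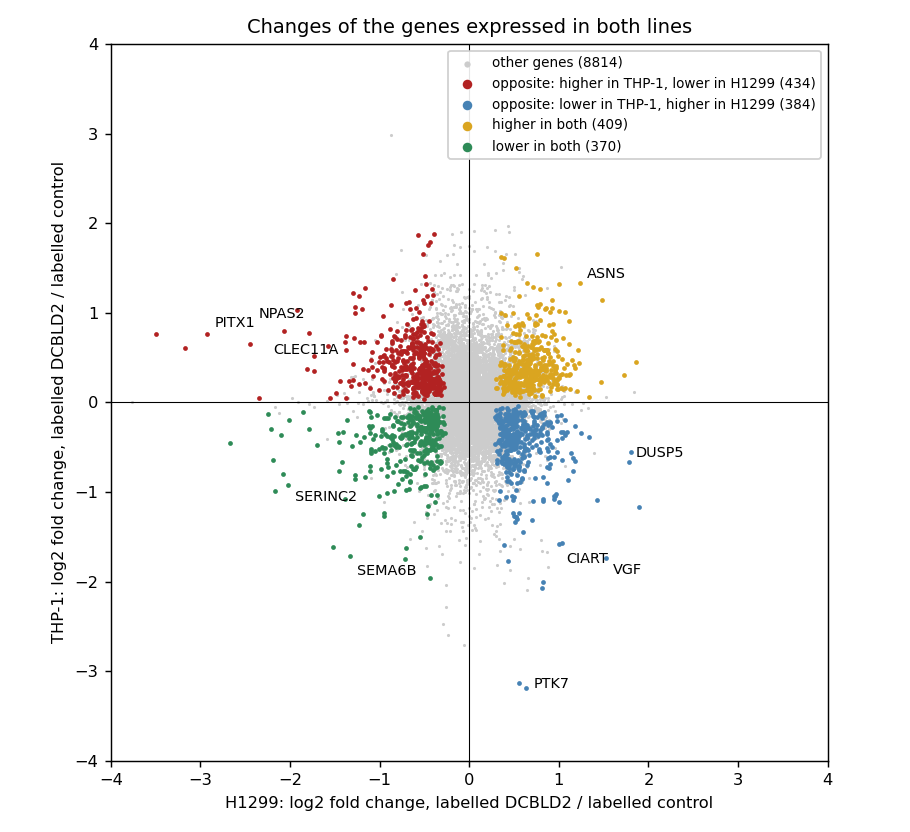
Each point is one of the genes expressed in both lines, with its log2 fold change (labelled DCBLD2 over labelled control) in H1299 on the x axis and in THP-1 on the y axis; colours mark the 4 classes of genes called in both lines and grey the rest, and 2 genes lie outside the axes. The 4 quadrants hold similar numbers of coloured points (434, 384, 409 and 370).

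The circadian clock held some of the widest splits between the lines. Of 14 clock genes expressed in both, 9 had a called negative difference and 1, NPAS2, a positive one, with a median difference of -0.86 beside -0.031 over all 10411 genes. In THP-1, 3 rose and 9 fell, with a median change of -0.26, and in H1299, 6 rose and 1 fell, with a median of 0.57. The repressors NR1D1, CIART, PER1, CRY1 and CRY2 fell in THP-1 and rose in H1299, and NPAS2, the activator that can stand in for CLOCK, did the reverse. CLOCK, BHLHE41, NFIL3 and BMAL1 had no called difference. Without H1299 labelled DCBLD2 replicate 2 the H1299 rises were 2 in place of 6.

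NPAS2 (chr2:100820152-100996829) stood at 39.7, 28.7 and 33.7 TPM in H1299 labelled control and at 8.24, 7.59 and 8.36 TPM in labelled DCBLD2. THP-1 gave 5.67, 5.17 and 3.16 TPM against 7.85, 5.94 and 7.76 TPM. The groups overlapped in neither line, with changes of -2.07 ± 0.16 in H1299 (adjusted p = 0.000176) and 0.80 ± 0.10 in THP-1 (adjusted p = 5.48e-08). CIART (chr1:150282543-150287093), a repressor of CLOCK and BMAL1, went the other way. It stood at 14.8, 11.8 and 12.4 TPM in the labelled control and 23.1, 31.03 and 24.7 TPM in the labelled DCBLD2 libraries of H1299, and at 6.26, 5.82 and 5.86 against 2.13, 1.58 and 2.43 TPM in THP-1. Its change was 1.0 ± 0.14 in H1299 and -1.59 ± 0.17 in THP-1. PER1, a core repressor of the loop, held 20.4, 17.3 and 14.5 against 29.9, 39.7 and 32.2 TPM in H1299 and 32.1, 30.7 and 30.8 against 19.4, 20.7 and 20.5 TPM in THP-1, again without overlap. The nuclear receptor NR1D1, which represses BMAL1, changed by 1.04 ± 0.19 in H1299 and -1.57 ± 0.15 in THP-1, and CRY1, the partner of PER proteins, by 0.52 ± 0.11 and -0.98 ± 0.078. The H1299 rises of NR1D1 and CRY1 were not called without labelled DCBLD2 replicate 2, and that of CRY2 without any one of 4 H1299 libraries. BHLHE40, an E-box repressor, fell by 1.54 in THP-1, from 238, 237 and 244 to 79.1, 79.4 and 82.6 TPM, and was not called in H1299 (0.80 ± 0.25, adjusted p = 0.0504), where its groups overlapped.

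The promoters of 6 of the 14 clock genes (BHLHE40, BHLHE41, CIART, NR1D2, PER1 and TEF) hold the E-box CACGTG, which reads the same on both strands, in the 300 bases from 250 before to 50 after a RefSeq start (GRCh38.p14). This stretch held it in 13.2% of the 8574 genes with a promoter in the table and in 7.26% of all 35116 promoters. The 3 E-boxes of the CIART promoter and the 1 of PER1 are shown in capitals because these 2 genes moved in opposite directions in the 2 lines. The other opposite movers among the clock genes, NPAS2, NR1D1, CRY1 and CRY2, do not hold it in this stretch. BHLHE41 holds it and had no called difference. A match is a description of the letters, not of binding.
CIART, chr1:150282415-150282512, + strand: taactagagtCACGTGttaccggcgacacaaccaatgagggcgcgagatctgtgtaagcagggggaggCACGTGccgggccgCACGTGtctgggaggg
PER1, chr17:8152562-8152587, - strand: cacccaggtcCACGTGcgcccgtgtg

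The folding machinery of the ER split the lines in the same direction. Of 34 unfolded protein response and ER chaperone genes, 20 had a called negative difference and 2 a positive one, SEC61B and SEC61G, which encode small subunits of the translocation channel. The median difference was -0.47. In THP-1, 5 rose and 22 fell (median -0.17), and in H1299, 7 rose and 1 fell (median 0.26), and 6 of the genes were opposite movers. The H1299 rises were 2 or 3 without labelled control replicate 3 and without each labelled DCBLD2 library in turn, whereas the 20 negative differences were 18 to 23 over the 12 libraries left out in turn.

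HSPA5 (chr9:125234853-125241330), the main HSP70 chaperone of the ER, stood at 222, 212 and 237 TPM in H1299 labelled control and at 428, 582 and 455 TPM in labelled DCBLD2. THP-1 held 888, 887 and 894 TPM against 476, 466 and 478 TPM. Its level roughly doubled in H1299 and was nearly halved in THP-1, with changes of 1.11 ± 0.11 (adjusted p = 0.000805) and -0.87 ± 0.015 (adjusted p = 1.17e-24). PDIA4, a disulfide isomerase, changed by -0.88 ± 0.029 in THP-1 and 0.44 ± 0.12 in H1299, and PDIA6, another, by -0.58 ± 0.021 and 0.33 ± 0.088. The H1299 call of PDIA4 was lost without any one of 5 of the 6 H1299 libraries, and that of PDIA6 without any one of 4. HYOU1, a large HSP70 family chaperone of the ER, fell by 0.73 in THP-1 and was not called in H1299 (0.24 ± 0.10). HSP90B1, the HSP90 of the ER, changed by -0.14 ± 0.021 in THP-1 and 1.03 ± 0.13 in H1299.

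Promoters of 7 of the 30 genes of this list with a RefSeq promoter (CALR, CANX, CRELD2, HSP90B1, HSPA5, PDIA6 and XBP1) hold the ER stress element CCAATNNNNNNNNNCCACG on either strand. It was found in 0.175% of the 8574 genes with a promoter and in 0.077% of all 35116 promoters. None of the 3 motifs searched here contains another, although an E-box can begin in the last letters of this element. Of these 7, HSPA5, HSP90B1, PDIA6 and XBP1 were opposite movers, XBP1 with a H1299 call that was lost without any one of 5 libraries, and CRELD2 had no call in either line (0.13 ± 0.061 in THP-1 and -0.047 ± 0.14 in H1299). The element is in capitals in the 3 pieces below, from the opposite movers with the largest H1299 rises and PDIA6, and HSP90B1 holds a copy on each strand.
HSPA5, chr9:125241381-125241419, - strand: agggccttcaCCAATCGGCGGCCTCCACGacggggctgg
PDIA6, chr2:10812843-10812881, - strand: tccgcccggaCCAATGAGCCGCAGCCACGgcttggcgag
HSP90B1, chr12:103930206-103930349, + strand: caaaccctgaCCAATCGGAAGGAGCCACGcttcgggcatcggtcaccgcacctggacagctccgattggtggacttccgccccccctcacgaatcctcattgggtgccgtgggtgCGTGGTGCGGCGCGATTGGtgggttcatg

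**Figure D2:**
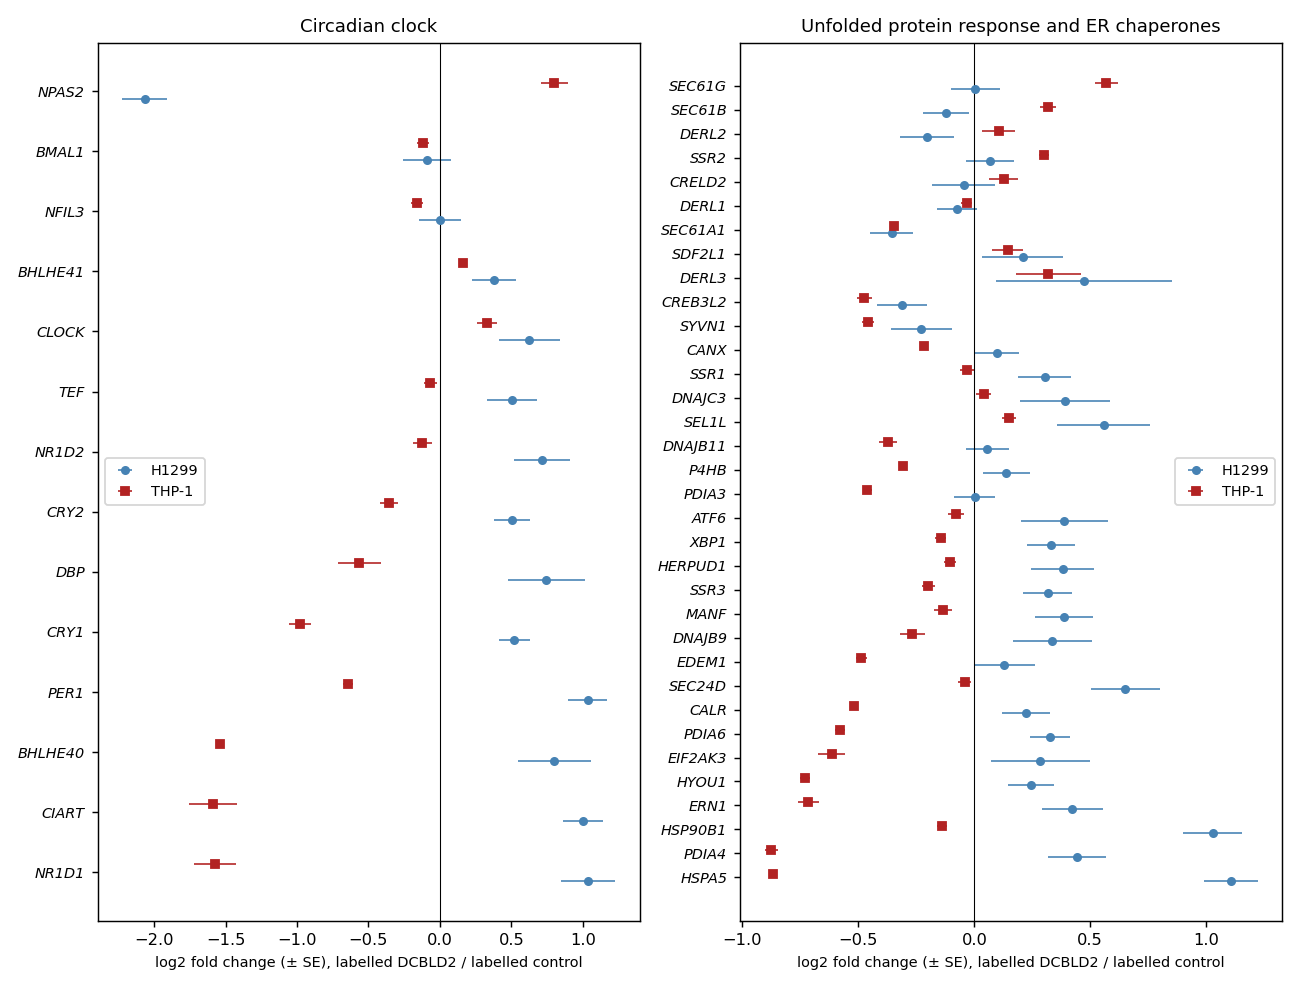
Log2 fold change (labelled DCBLD2 over labelled control, ± SE, x axis) of each expressed gene of the circadian clock (left) and of the unfolded protein response and ER chaperone list (right), with H1299 as circles and THP-1 as squares, ordered by the difference of responses. In the lower rows, from NR1D1 to CRY1 and from HSPA5 to PDIA6, the THP-1 points lie below 0 and the H1299 points above it.

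Cytosolic chaperones and oxidative stress genes leaned the same way. Among 28 heat shock and chaperonin genes the difference was called negative in 15 and positive in 2, with a median of -0.37. In H1299, 10 rose (median 0.18), and in THP-1, 9 rose and 13 fell (median -0.048). Of these genes 4 rose in both lines and 3 were opposite movers. The inducible HSPA1B fell from 94.2, 93.4 and 89.01 to 35.5, 38.9 and 38.00 TPM in THP-1 (-1.27 ± 0.035) and changed by 0.50 ± 0.12 in H1299, where its groups did not overlap. HSPA1B has a near-identical copy, so its reads are uncertain. HSPA8, the constitutive HSP70, changed by -0.51 in THP-1 and 0.50 in H1299. HSP90AB1 and STIP1, an HSP90 and its co-chaperone, fell by 0.59 and 0.84 in THP-1 and were not called in H1299 (0.28 and 0.10). Of 29 NRF2 target and iron genes, 16 had a negative and 2 a positive called difference (median -0.30), and 6 rose in H1299. HMOX1, which degrades heme, fell from 85.2, 83.1 and 82.3 to 45.3, 46.5 and 40.9 TPM in THP-1 and was at 28.1, 29.4 and 29.3 against 38.1, 42.5 and 37.3 TPM in H1299. TXNRD1, a thioredoxin reductase, changed by -0.51 and 0.63, FTL, the ferritin light chain, by -0.15 and 0.59, and the exporter ABCC1 by -0.87 in THP-1 with no call in H1299 (0.067). Without H1299 labelled DCBLD2 replicate 2 the H1299 rises were 3 of 28 and 1 of 29, and without replicate 1 the 10 heat shock rises were 5. The H1299 call of HMOX1 was lost without any one of 4 H1299 libraries and that of HSPA1B without any one of 3. That of HSPA8 was lost without labelled DCBLD2 replicate 1 or 2, and those of TXNRD1 and FTL without replicate 2.

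DUSP5, VGF and EPHA2 rose in H1299 and fell in THP-1. DUSP5, a phosphatase that ERK signalling induces and that acts on ERK, held 73.5, 77.7 and 99.9 against 266, 329 and 272 TPM in H1299 and 424, 432 and 414 against 254, 263 and 262 TPM in THP-1 (1.78 ± 0.13 and -0.67 ± 0.019). VGF, a secreted neuropeptide precursor, rose by 1.53 ± 0.24 in H1299 and fell from 8.52, 8.43 and 8.55 to 2.07, 2.72 and 2.71 TPM in THP-1. The receptor tyrosine kinase EPHA2 fell from 8.23, 7.101 and 6.91 to 2.18, 2.005 and 2.196 TPM in THP-1 and was at 189.5, 203 and 196 against 261, 269 and 268 TPM in H1299, a call that was lost without labelled DCBLD2 replicate 2.

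Among 18 ERK feedback genes the difference was called positive in 5 and negative in 8 (median -0.20), and 3 rose and 14 fell in THP-1. In H1299, 4 of them rose and 3 fell (median -0.0042), and without labelled DCBLD2 replicate 2 the edgeR test called 1 rise and 0 falls (3 down at an unadjusted p under 0.05). Of the rest of that list, DUSP1, another phosphatase of this family, changed by -0.54 in THP-1 and 0.66 in H1299 (not called without labelled DCBLD2 replicate 2), while SPRED1, an inhibitor of the RAS pathway, rose by 0.63 in THP-1 with no call in H1299 (-0.28). The positive calls were 3 without THP-1 labelled control replicate 1. Among 24 AP-1 and immediate early genes 4 differences were positive and 10 negative (median -0.33), with 4 rises and 14 falls in THP-1. In H1299, 4 rose and 3 fell (median 0.21), 7 and 3 without labelled control replicate 1, 3 and 1 without control replicate 3 or labelled DCBLD2 replicate 2, and 9 and 2 with a term for transcript length and GC content described below. The mRNA decay factors ZFP36L1 and ZFP36 rose in H1299 (1.16 and 1.18) and fell in THP-1 (-0.62 and -0.27). Their relative ZFP36L2 fell by 0.73 in THP-1 and was not called in H1299 (-0.067), and the stress factor ATF3 fell by 0.84 in THP-1 with an uncalled 0.67 in H1299.

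The other opposite movers of this direction came from unrelated roles. HSPG2, the basement membrane proteoglycan perlecan, held 31.7, 31.8 and 31.7 against 55.4, 61.04 and 62.5 TPM in H1299 and 40.3, 40.4 and 39.97 against 18.2, 19.8 and 18.4 TPM in THP-1, without overlap in either line. With the H1299 labels as given, PTK7, a pseudokinase of Wnt signalling, had the most negative difference among genes with at least 5 TPM in a group of each line (-3.84 ± 0.15, adjusted p = 7.62e-09). With those labels exchanged PTK7 would be a like mover. It fell from 11.8, 12.9 and 12.3 to 1.48, 1.44 and 2.57 TPM in THP-1 and was at 4.84, 4.63 and 4.84 against 8.03, 6.71 and 8.096 TPM in H1299. CD55, which protects cells from complement, fell by 0.69 in THP-1 and rose by 0.90 in H1299. KYAT1, SAT1, FCHO1, TSPYL2 and AFAP1L1 changed by -1.08, -0.83, -0.77, -0.73 and -1.31 in THP-1 and by 0.94, 0.82, 1.15, 0.89 and 0.70 in H1299. Of the genes named for this class, NR1D1, KYAT1, SAT1 and AFAP1L1 left it without H1299 labelled DCBLD2 replicate 2. KYAT1 and SAT1 also left it without labelled control replicate 3, SAT1 without labelled DCBLD2 replicate 3 and AFAP1L1 without labelled DCBLD2 replicate 1.

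**Figure D3:**
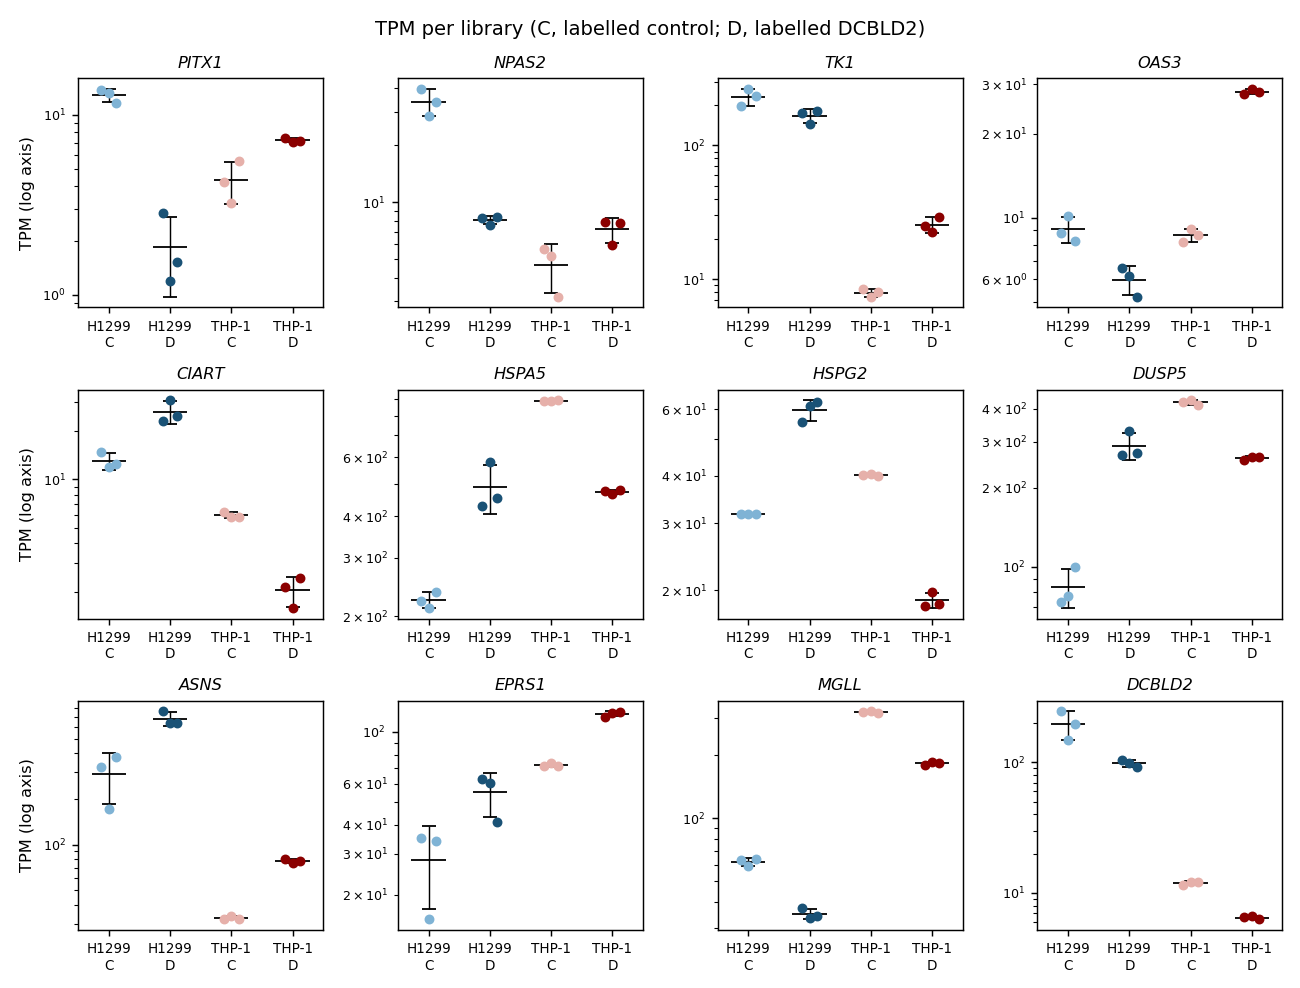
TPM (log axis) of 12 genes in each of the 12 libraries, with points for libraries, a horizontal line for the group mean and error bars of 1 SD (n = 3). PITX1, NPAS2, TK1 and OAS3 rose in THP-1 and fell in H1299, CIART, HSPA5, HSPG2 and DUSP5 did the reverse, ASNS and EPRS1 rose in both lines, and MGLL and DCBLD2 fell in both. With each of the 6 H1299 libraries left out in turn, the H1299 call was kept 2 times for TK1, 1 for OAS3 and 4 for EPRS1. It was kept all 6 times for the other genes shown.

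Among the genes that rose in THP-1 and fell in H1299, the transcription factor PITX1 had the widest split, with the H1299 labels as given, among genes with at least 5 TPM in a group of each line. With those labels exchanged it would be a like mover. PITX1 (chr5:135027735-135034813) stood at 13.7, 13.2 and 11.6 TPM in H1299 labelled control and at 2.84, 1.19 and 1.51 TPM in labelled DCBLD2. THP-1 held 4.24, 3.25 and 5.55 against 7.42, 7.07 and 7.18 TPM. Its change was -2.93 ± 0.25 in H1299 and 0.76 ± 0.12 in THP-1, a difference of 3.68 ± 0.29 (adjusted p = 1.17e-06). CLEC11A, a secreted lectin that acts as a growth factor for blood and bone cells, held 66.6, 75.5 and 60.1 against 16.2, 20.5 and 22.00 TPM in H1299 and 118, 121 and 121 against 204, 199.9 and 198 TPM in THP-1. STMN3, a microtubule-binding protein, fell by 1.28 in H1299 and rose by 0.99 in THP-1, and TMEM200A likewise (-1.28 and 1.07). TGFB2, a ligand of the TGF-beta receptors, was low in both lines and changed from 3.56, 3.53 and 3.43 to 1.72, 1.45 and 1.46 TPM in H1299 and from 1.64, 1.85 and 1.93 to 4.04, 4.35 and 4.54 TPM in THP-1. NRP1, a co-receptor of VEGF and semaphorins that shares domains with DCBLD2, rose in THP-1 from 108, 105 and 106 to 152, 141 and 149.5 TPM. In H1299 NRP1 fell by 3.17 from a low and uneven level, 7.91, 2.68 and 3.09 TPM against 0.254, 0.935 and 1.703 TPM.

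STAT6 had a large difference (2.38 ± 0.15) that came almost wholly from H1299, where it fell from 8.996, 6.12 and 5.24 to 0.951, 1.65 and 1.200 TPM. In THP-1 it was called at a change of only 0.046 ± 0.019, with overlapping TPM groups (185, 185 and 188 against 184, 189.9 and 184 TPM). LYSMD2 and ANTXR1, a receptor of anthrax toxin and collagen, rose by 1.86 and 1.88 in THP-1 from under 2 TPM and changed by -0.57 and -0.39 in H1299, calls that were lost without any one of 4 and of 3 H1299 libraries. DNAJC30, C16orf74, BORCS8, ACOT1, ZNF688, EIF4EBP3 and TCTA rose by 0.73 to 1.38 in THP-1 and fell by 0.80 to 1.38 in H1299. All of these but ZNF688 left the class without H1299 labelled DCBLD2 replicate 2. ACOT1 and EIF4EBP3 also left it without labelled DCBLD2 replicate 1, and EIF4EBP3 without labelled control replicate 3.

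Interferon-stimulated genes rose in THP-1, and part of them parted the lines. Of 31 such genes expressed in both lines, the difference was called positive in 16 and negative in 2, UBE2L6 and ADAR, with a median of 0.67. It was not called in 13. In THP-1, 27 rose and 1 fell, with a median of 0.80. In H1299, 5 rose and 3 fell, with a median of 0.13. All 5 of these rises were in genes that also rose in THP-1, and the 3 falls were in opposite movers. The edgeR test called no H1299 rise without labelled control replicate 3 and without each labelled DCBLD2 library in turn. In those runs 5 to 7 were up at an unadjusted p under 0.05. The genes given below, those with the lowest p of the difference, all had negative H1299 values. The H1299 rises were 10 without labelled control replicate 1 and 2 without replicate 2. OAS3, a sensor enzyme for double-stranded RNA, held 8.198, 9.09 and 8.62 against 27.7, 28.9 and 28.1 TPM in THP-1 and 8.77, 10.2 and 8.25 against 6.58, 6.18 and 5.19 TPM in H1299, a change of 1.79 ± 0.041 and of -0.43 ± 0.12. The antiviral membrane protein IFITM3 went from 139, 131 and 124 to 392, 383 and 379 TPM in THP-1 and was not called in H1299 (-0.32 ± 0.13). ISG15, a ubiquitin-like modifier, went from 31.02, 34.8 and 31.8 to 84.8, 83.95 and 81.02 TPM and was likewise not called in H1299 (-0.22 ± 0.13), and IFI35 changed by 1.41 and -0.49. The H1299 calls of OAS3 and IFI35 were lost without any one of 5 and of 4 H1299 libraries.

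Promoters of 19 of the 27 interferon genes with a RefSeq promoter hold GAAANNGAAA, the core of the interferon-stimulated response element, on either strand, beside 3.58% of the 8574 genes with a promoter and 3.57% of all 35116 promoters. ISG15 is shown because its 2 copies, in capitals, overlap.
ISG15, chr1:1013374-1013409, + strand: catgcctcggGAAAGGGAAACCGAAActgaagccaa

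Genes of DNA synthesis also rose in THP-1, and part of them fell in H1299. Among 46 DNA replication genes the difference was called positive in 30 and negative in 1, with a median of 0.61. In THP-1, 34 rose and 3 fell (median 0.39), and in H1299, 2 rose and 10 fell (median -0.22), so that 8 were opposite movers. The edgeR test called 0 of these falls without H1299 labelled DCBLD2 replicate 2 (11 at an unadjusted p under 0.05), 5 without labelled control replicate 3, and 16 without labelled control replicate 1. The thymidine kinase TK1 held 8.48, 7.35 and 7.96 against 25.1, 22.5 and 29.3 TPM in THP-1 and 197, 263 and 236 against 174, 146 and 182 TPM in H1299, a H1299 call that was lost without any one of 4 libraries. Thymidylate synthase (TYMS) rose by 1.18 in THP-1, and the licensing factor CDT1 by 1.32, with H1299 values of -0.29 and -0.076 that were not called. TYMS stood far lower in THP-1 than in H1299, at 8.502, 8.38 and 8.99 TPM in THP-1 control against 273, 336 and 341 TPM in H1299 control.

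Mitosis genes rose in THP-1 with a smaller shift in H1299. Of 31, 15 had a positive and 2 a negative called difference (median 0.56), and 27 rose and 2 fell in THP-1. In H1299, 8 rose and 1 fell (median 0.15), and all 8 of these rises were in genes that also rose in THP-1. CDK1, the mitotic kinase, rose from 3.56, 3.399 and 2.91 to 10.6, 10.3 and 8.695 TPM in THP-1 and from 86.7, 81.99 and 104 to 126, 123 and 105 TPM in H1299, a H1299 call that was lost without any one of 5 of the 6 libraries. BIRC5, the survivin gene, rose by 1.14 in THP-1 and was not called in H1299 (-0.41). The 8 H1299 rises of this list were 0 by the edgeR test without labelled DCBLD2 replicate 2 (9 at an unadjusted p under 0.05) and 1 without replicate 1.

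Ribosome and respiratory chain genes rose in THP-1 with medians near 0 in H1299. Of 77 cytosolic ribosomal protein genes, 67 rose and 7 fell in THP-1 (median 0.51), none was called in H1299 by the edgeR test (median -0.033) and the difference was called positive in 55 and negative in 6 (median 0.52). At an unadjusted p under 0.05, 1 was up and 1 down in H1299, and DESeq2 called 0 up and 1 down. The 6 negative differences were 0 to 5 over the libraries left out in turn, fewest without H1299 labelled control replicate 3. RPL37 held 949.5, 903 and 947 against 2549.8, 2105 and 2149 TPM in THP-1 and 2066, 1900.3 and 1504 against 1870.0, 1657 and 1915 TPM in H1299, where the groups overlapped. RPL35, RPS14 and FAU changed by 1.05, 1.05 and 1.17 in THP-1 and by 0.031, -0.0051 and -0.0032 in H1299. Ribosomal protein genes have processed pseudogenes, which makes their counts uncertain.

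Of 77 respiratory chain genes of the nucleus, 67 rose and 5 fell in THP-1 (median 0.54), 1 rose in H1299, and the difference was positive in 55 and negative in 4 (median 0.52). NDUFB2 and NDUFA13 of complex I and UQCRQ of complex III rose by 1.21, 1.04 and 1.25 in THP-1 and were not called in H1299 (-0.36, -0.38 and -0.15). UQCRC2, a larger subunit of complex III, went the other way in both lines, -0.37 in THP-1 and 0.46 in H1299 (not called without labelled DCBLD2 replicate 1 or 2). The 13 genes of the mitochondrial genome, which encode other subunits of the same complexes, moved against the nuclear ones in THP-1. Of these, 12 fell and 1, MT-ND3, rose in THP-1 (median -0.53), and the difference was negative in 10 and positive in 1 (median -0.48). MT-ND2 held 7001, 6984 and 7144 against 3570.2, 3578 and 3714 TPM in THP-1 and 4676, 4299 and 5035 against 5650.2, 5050.2 and 4133 TPM in H1299. MT-CO1, MT-ND4 and MT-ND5 fell by 0.59, 0.66 and 0.63 in THP-1, with uncalled H1299 values of 0.27, 0.16 and -0.073. Among 77 mitochondrial ribosomal protein genes 35 differences were positive and 10 negative (median 0.31). MRPS11 and MRPL14 rose by 0.79 and 0.86 in THP-1, and MRPS11 fell by 0.59 in H1299, a call that was lost without labelled DCBLD2 replicate 2. The 10 negative calls were 6 without H1299 labelled control replicate 1, and the same without replicate 2 or 3 of labelled DCBLD2.

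Transcript length moved with these results. When ordered by the length of their longest annotated protein-coding transcript (or, with none, their longest transcript), and split into 5 equal groups, the shortest genes (192 to 1936 bases) had a median difference of 0.33, with 43.1% called positive and 9.49% negative. The longest group (5666 to 34526 bases) had a median of -0.24, with 11.2% called positive and 33.3% negative. The median THP-1 change was 0.23 in the shortest and -0.053 in the longest group, and the median H1299 change went the other way, -0.088 and 0.17. Base composition differed between the classes too. The median GC content of transcripts was 58.2% in genes that rose in THP-1 and fell in H1299, 46.5% in the reverse class, 39.7% in genes that rose in both and 52.96% in genes that fell in both, beside 48.7% over all. Median lengths were 2677, 4318, 4825 and 4237 bases, beside 3371 over all. With a smooth term for length and GC content in each library, chosen after seeing the data, these 7 lists kept the sign of their median. The ribosomal list then had 46 positive and 9 negative differences (median 0.39), nuclear respiratory genes 49 and 5 (0.37), the clock 1 and 9 (-0.79), ER chaperones 0 and 23 (-0.37), DNA replication 33 and 1 (0.70), interferon genes 22 and 1 (0.71), and mitochondrially encoded genes 0 and 11 (-0.72). Of the genes named by rule, none lost or reversed its called difference with this term, DCBLD2 and SEMA6B gained one, and each opposite and like mover kept its class. Among all opposite and like movers fewer were shared: 304 of 434, 274 of 384, 231 of 409 and 225 of 370.

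**Figure D4:**
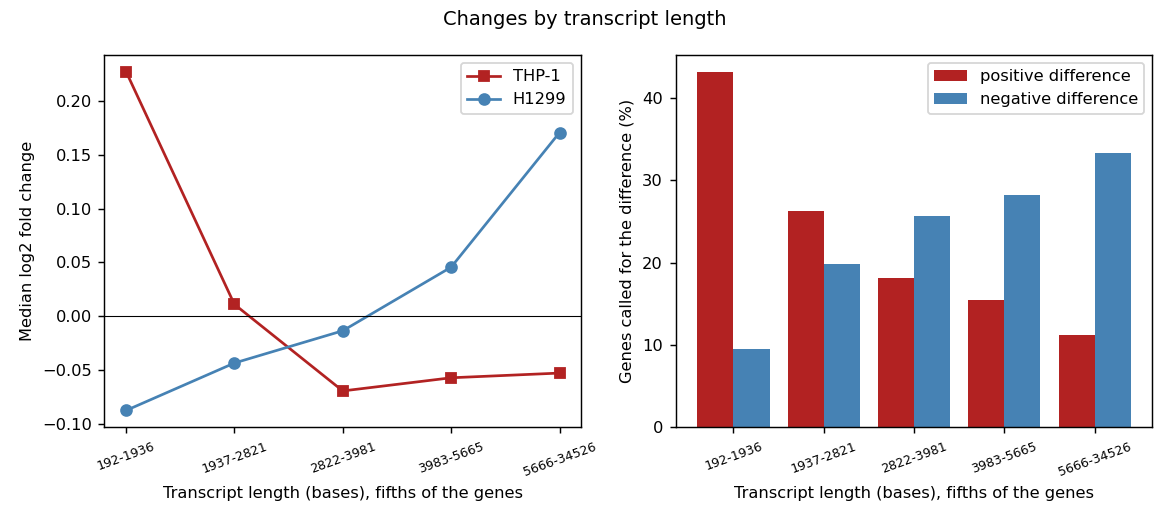
Left, median log2 fold change in THP-1 (squares) and H1299 (circles) in 5 equal groups of genes by transcript length in bases; right, the percentage of each group with a called positive or negative difference of responses. The THP-1 median is 0.23 in the shortest group and between -0.070 and 0.011 in the other 4, the H1299 median goes from -0.088 to 0.17, and positive calls go from 43.1% to 11.2%.

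Among the named genes that rose in both lines, ASNS (chr7:97852118-97872542), asparagine synthetase, had the largest change in the line where it moved less. It stood at 325, 172 and 379 TPM in H1299 labelled control and at 762, 637 and 634 TPM in labelled DCBLD2. THP-1 held 32.3, 33.6 and 32.5 against 79.98, 75.9 and 77.5 TPM. The changes, 1.23 ± 0.23 and 1.33 ± 0.038, gave a difference of 0.082 ± 0.26 (adjusted p = 0.855), and control replicate 2 was the lowest H1299 control library. Without that library the difference was 0.39 (adjusted p = 0.0123). Of 30 integrated stress response and amino acid genes, 25 rose and 3 fell in THP-1 (median 0.60) and 3 rose and 1 fell in H1299 (median 0.20), with 16 positive and 3 negative called differences. ATF4, the transcription factor of this response, rose from 570.2, 573 and 560.2 to 968, 969.6 and 977 TPM in THP-1 and was not called in H1299 (-0.15 ± 0.10). Its relative ATF5 rose in THP-1 and fell in H1299 (0.60 and -0.93). PSPH, of serine synthesis, rose by 0.88 in THP-1 with -0.35 in H1299 (not called), and ALDH18A1, of proline synthesis, fell by 0.89 in THP-1 with 0.29 in H1299 (not called).

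The tRNA synthetases, which load amino acids onto tRNAs, had few called differences. Of 20, 3 had one (median -0.15): KARS1 and FARSB negative and TARS1 positive. In THP-1, 12 rose and 3 fell. In H1299, 5 rose, and 4 of the 5 (EPRS1, IARS1, LARS1 and YARS1) had risen in THP-1. The edgeR test called 0 of these H1299 rises without labelled DCBLD2 replicate 2 (8 up at an unadjusted p under 0.05), 1 without replicate 1 and 3 without labelled control replicate 2. EPRS1 went from 71.3, 73.4 and 71.6 to 116, 121 and 122 TPM in THP-1 and from 35.2, 15.7 and 34.1 to 63.1, 60.6 and 41.2 TPM in H1299, where control replicate 2 was again lowest. KARS1 and FARSB changed by -0.26 and -0.15 in THP-1 and by 0.21 and 0.52 in H1299, where KARS1 was not called, FARSB was not called without any one of 3 libraries and the TPM groups of both overlapped.

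Other named genes that rose in both had varied roles. RAD50 and SMC6 belong to complexes of DNA repair. RAD50 held 12.2, 5.89 and 10.4 against 18.8, 19.4 and 14.5 TPM in H1299 and 3.03, 3.19 and 2.97 against 6.94, 6.05 and 6.797 TPM in THP-1, and SMC6 15.6, 5.83 and 11.6 against 19.9, 24.5 and 17.1 TPM and 3.05, 3.43 and 3.53 against 5.47, 6.16 and 6.28 TPM. LYSMD3, ANKRD12, the RNA helicase MTREX and the actin-binding CCDC88A rose by 0.87 to 1.02 in THP-1 and by 0.90 to 1.11 in H1299. Of the 8 genes named as rising in both, all but ASNS left the class without H1299 labelled DCBLD2 replicate 2. SMC6, ANKRD12 and EPRS1 also left it without labelled DCBLD2 replicate 1, and SMC6 and ANKRD12 without labelled control replicate 3. SMC6 left it too without labelled DCBLD2 replicate 3 and with limma on log2(TPM + 1). SPP1, which encodes osteopontin, also rose in both but by different amounts, from 2225, 2202 and 2222 to 2345, 2399 and 2399 TPM in THP-1 and from 4.34, 3.62 and 5.05 to 8.63, 8.94 and 7.54 TPM in H1299 (difference -0.84 ± 0.10).

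Among genes that fell in both lines, MGLL, which breaks down monoacylglycerols, held 63.6, 59.1 and 63.8 against 37.2, 33.4 and 34.4 TPM in H1299 and 320.3, 323 and 318 against 179, 186 and 183 TPM in THP-1. Its changes were -0.86 ± 0.092 and -0.77 ± 0.017, with a difference of 0.071 ± 0.077. The last SE pools the spreads of both lines, and so lies below the SE of the H1299 change. SEMA6B, a transmembrane semaphorin, held 37.2, 37.3 and 30.3 against 12.7, 13.6 and 14.7 TPM and 10.5, 11.03 and 10.8 against 3.02, 3.08 and 3.11 TPM. RHOBTB2, the cyclin CCNA1, SEC14L2 and the sulfotransferase CHST3 fell by 0.76 to 1.01 in THP-1 and by 0.75 to 1.27 in H1299. SERINC2 fell further in H1299 (-2.02 ± 0.24) than in THP-1 (-0.92 ± 0.14, adjusted p of the difference = 0.0113). Of the 8 genes named, only SEC14L2 left the class when labelled DCBLD2 replicate 1 or 2 was left out, and DCBLD2 itself stayed in it.

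**Figure D5:**
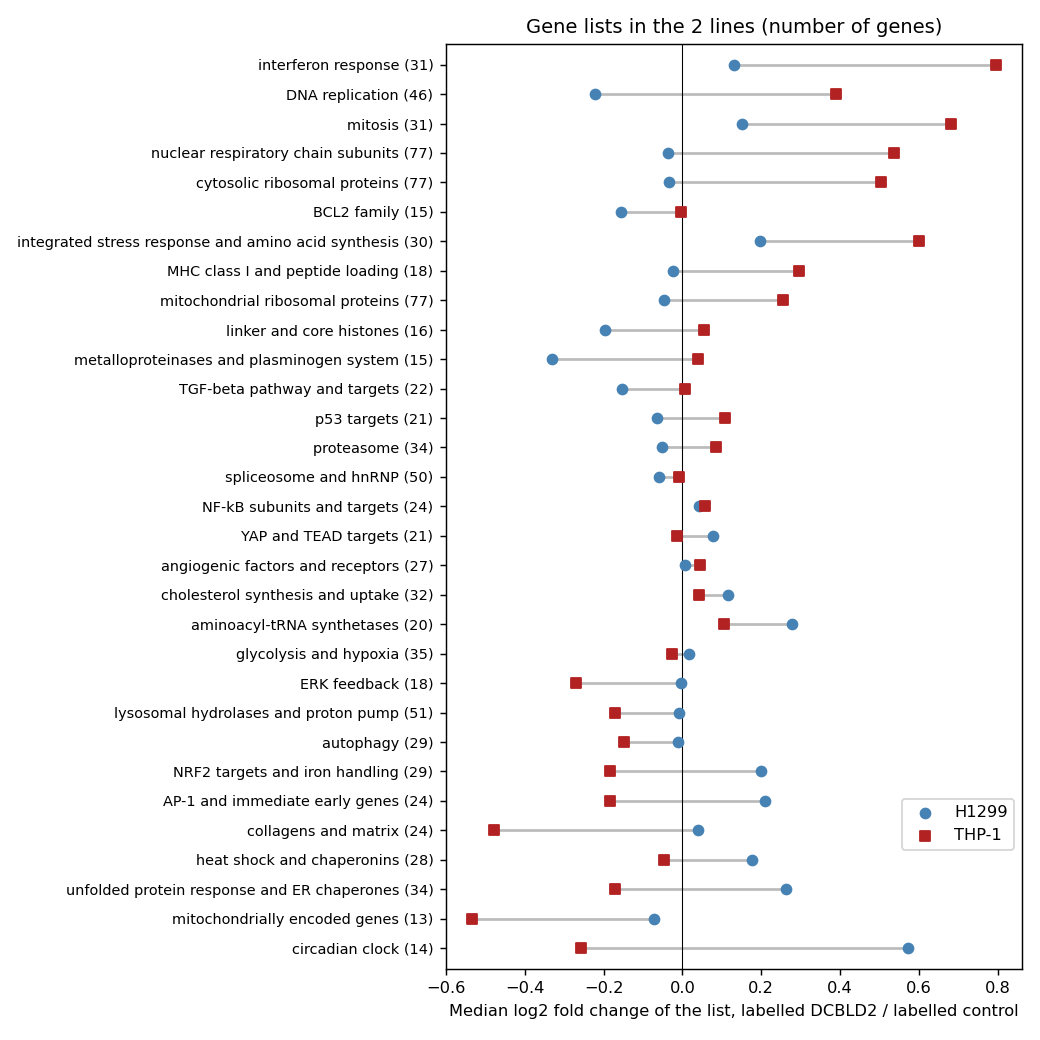
Median log2 fold change (labelled DCBLD2 over labelled control) of the expressed genes of each list in H1299 (circles) and THP-1 (squares), with the number of genes in brackets, ordered by the median difference of responses. Interferon, DNA replication and ribosomal lists stand higher in THP-1 and the clock and ER chaperone lists higher in H1299.

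Matrix, protease and vessel-related genes were mixed. Of 24 collagen and matrix genes, 5 differences were positive and 12 negative (median -0.35), with 5 rises and 16 falls in THP-1, and 5 genes fell in both lines. The 8 H1299 falls of this list were 4 without labelled DCBLD2 replicate 1 or 2. LAMC1, a laminin chain, fell by 0.37 in THP-1 and rose by 0.56 in H1299. Of 15 metalloproteinase and plasminogen genes, 8 differences were positive and 4 negative (median 0.30). Of these genes 1 rose and 4 fell in both lines, 3 rose in THP-1 and fell in H1299, and 1 did the reverse. PLAU, the urokinase, was an opposite mover, rising from 111, 118 and 115 to 176, 178 and 177 TPM in THP-1 and falling from 650.1, 619 and 644 to 513, 519 and 534 TPM in H1299, a H1299 call that was lost without any one of 4 libraries. Among 27 angiogenic factors and receptors 7 differences were positive and 9 negative (median -0.085). Of these genes 3 rose and 2 fell in both lines, 1 rose in THP-1 and fell in H1299, and 2 did the reverse. NRP2, the relative of NRP1, changed by -1.05 in THP-1 and 0.50 in H1299, against the direction of NRP1. Its H1299 call was lost without any one of 5 libraries.

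Lysosome, autophagy and proteasome genes differed in direction. Of 51 lysosomal genes 13 differences were positive and 21 negative (median -0.21). GM2A, an activator of ganglioside breakdown, fell from 168, 169 and 172 to 59.3, 59.3 and 61.2 TPM in THP-1 and was not called in H1299 (0.28), and the cholesterol exporter NPC1 changed by -1.09 in THP-1 and 0.33 in H1299, where its TPM groups overlapped and its call (adjusted p = 0.0487) was lost without any one of 5 of the 6 libraries. Among 29 autophagy genes 4 differences were positive and 7 negative (median -0.21), with 1 to 4 positive and 4 to 10 negative over the libraries left out. The negative extremes were without H1299 labelled DCBLD2 replicate 2 and labelled control replicate 1. Of these genes 4 rose in both lines, and 2 fell in THP-1 and rose in H1299. WIPI1 was at -0.41 in THP-1 and 0.88 in H1299 and ATG16L1 at -0.70 and 0.047, the last not called. Of 34 proteasome genes 11 were positive and 4 negative (median 0.14, 17 positive without H1299 labelled control replicate 1 and 6 with the length and GC term), with PSMA4 and POMP rising by 0.46 and 0.55 in THP-1 and not called in H1299 (-0.11 and -0.064). Of 18 MHC class I genes 8 were positive and 4 negative (median 0.31), the immunoproteasome subunit PSMB10 rising by 0.77 and the chaperone CALR falling by 0.52 in THP-1. HLA-DMA, the only MHC class II gene of 11 with 1 TPM in both lines, changed by -0.39 in THP-1 and 1.34 in H1299 from a low level there, a call that was lost without any one of 3 libraries.

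The remaining lists were divided. Among 22 TGF-beta genes 8 differences were positive and 5 negative (median 0.18, the negative ones 2 to 4 over the libraries left out, fewest without H1299 labelled control replicate 3 or DCBLD2 replicate 2 or THP-1 labelled control replicate 1 or DCBLD2 replicate 2), and TGIF1, a repressor in this pathway, fell by 0.56 in THP-1 and rose by 0.79 in H1299. Among 21 YAP targets 4 were positive and 8 negative (median -0.018, 5 negative without H1299 labelled control replicate 3). CCN1 rose in H1299 from 759, 698 and 801 to 1623, 1653 and 1723 TPM and was not called in THP-1 (-0.014 ± 0.057). Of 24 NF-kB genes 3 were positive and 3 negative (median 0.037, the positive ones 1 without any one THP-1 library and 6 without H1299 labelled control replicate 3 or DCBLD2 replicate 3), with the caspase-8 regulator CFLAR falling by 0.57 in THP-1. With the length and GC term the medians of the YAP and NF-kB lists took the opposite sign (0.018 and -0.0085), and that of the YAP list also did without several single libraries. Of 21 p53 targets 6 were positive and 5 negative (median 0.16, the negative ones 2 to 4 over the libraries left out, fewest without H1299 labelled control replicate 3 or DCBLD2 replicate 2 or THP-1 labelled DCBLD2 replicate 1), with TNFRSF10B at -0.52 and TP53I3 at 0.35 in THP-1 and at 0.22 (not called) and -0.79 in H1299.

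Metabolic, splicing, cell death and histone lists had median differences from -0.15 to 0.51. Among 35 glycolysis and hypoxia genes 8 were positive and 10 negative (median -0.15), with P4HA2 falling by 1.05 in THP-1 (0.15 in H1299, not called) and the glucose transporter SLC2A3 at -0.58 and 0.67, the last not called without labelled DCBLD2 replicate 2. Of 32 cholesterol genes 4 were positive and 8 negative (median -0.11, the negative ones between 5 and 14 over the libraries left out, highest without H1299 labelled control replicate 1, and the positive ones 9 without replicate 3), with FADS2, a fatty acid desaturase, rising by 0.90 in THP-1 and not called in H1299 (0.0019). Among 50 splicing genes 17 were positive and 15 negative (median 0.050), and HNRNPM rose in THP-1 (0.57) and fell in H1299 (-0.76) while SRSF4 did the reverse (-0.47 and 0.52). Of 15 BCL2 family genes 5 were positive and 2 negative (median 0.51), with BID rising by 1.02 in THP-1 and BCL2L13 at -0.27 and 0.37. Of 16 histone genes 6 were positive and 5 negative (median 0.30, and 0.015 with the length and GC term), with H2AZ1 rising by 0.78 in THP-1 and H2BC12 at -0.45 and 0.49. The H1299 calls of BCL2L13 and H2BC12 were each lost without any one of 3 libraries.

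The level of a gene in the 2 lines also varied between the classes. Of the genes that rose in THP-1 and fell in H1299, 5.53% had a THP-1 control level under 10% of that in H1299, beside 2.795% of all the genes, 3.51% of those that fell in both, 2.2% of those that rose in both, 1.302% of the reverse class and 5.74% of those that rose in THP-1 with no H1299 call. An H1299 control level under 10% of that in THP-1 was found in 6.77% of the reverse class and 3.46% of the first, beside 2.48% of all the genes. Among the 9031 genes whose control levels differed less than 5-fold between the lines, 353 and 324 were opposite movers and 363 and 297 like movers. Whether H1299 RNA in the THP-1 libraries contributed to any THP-1 change was not tested.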

How the data were processed

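RNA was sequenced from 12 libraries of the lines H1299 and THP-1, 3 per group. Per the submitters' processing notes, the tools included RSEM, HISAT2, StringTie 1.3.1, Bowtie2 2.2.8 and fastp 0.18.0, and the build was hg38. The sources used here give neither the annotation nor the use of strand. The authors deposited a table of TPM and of estimated counts per gene, of which 12.0% to 13.4% per library were not whole. The totals run from 14578887 to 26787853 estimated reads.

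The estimated counts were rounded. edgeR 4.0.16 (R 4.3.3) filtered low genes (filterByExpr, minimum 10), scaled with TMM and ran its quasi-likelihood test, on all 12 libraries for the difference of responses and on the 6 libraries of a line for each change, with Benjamini-Hochberg adjustment over all genes tested and a threshold of 0.05. SE is the absolute log2 fold change over the square root of F. The fit of all 12 libraries pools the spreads of the lines and has too many degrees of freedom for lines of unlike spread. The SE of a difference can therefore lie below that of its H1299 change, and its p-value may be too low. Separate limma voom fits of the lines gave 2338 positive and 2425 negative differences. Alternatives used DESeq2 1.42.0 and limma 3.58.1, among others. The code was tested on simulated data. Positions, transcript lengths and GC content come from GENCODE release 29 (GRCh38), which holds 98.9% of the identifiers. Promoters come from RefSeq (GRCh38.p14), matched by symbol for 8574 of the 10411 genes, and motifs were searched on both strands.

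The genes and lists were chosen with earlier results of these data known, so the lists are no independent support. Genes named are DCBLD2 and SPP1, the 12 opposite movers of each direction and the 8 like movers of each with the largest smaller change among genes without overlap and with at least 5 TPM in a group of each line, the 8 largest differences of each sign at that level, and, per list, the 2 or 4 genes whose difference had the lowest p. Others (such as CRY2, HSP90B1, CRELD2, SEC61B, UBE2L6, TARS1 and MT-ND3) were chosen after their values were seen. Some genes that this rule names are not reported here.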

Additional observations from a re-analysis of the deposited data

Results flagged for a closer look

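Of the 123 genes that the rules for naming pick and the text gives, 108 had a response that differed between the lines, by the edgeR quasi-likelihood test of the difference of responses over all 12 libraries (adjusted p under 0.05), positive in 49 and negative in 59. Opposite movers were picked among genes that pass this test, and most of the others for the size or the low p of this difference, so the choice largely fixed that count. The values are log2 differences, THP-1 change minus H1299 change, with the H1299 labels as given. The level of DCBLD2 goes against those labels, and with them exchanged the values and calls would have to be computed anew. The share of all genes tested that pass this test is large (19.3% positive and 19.5% negative), so passing it is common in these data.

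Among genes that rose in THP-1 and fell in H1299, the difference was 2.33 in TMEM200A, 2.27 in STMN3, 1.94 in DNAJC30, 2.23 in C16orf74, 2.85 in NPAS2, 1.59 in BORCS8, 2.55 in CLEC11A, 3.68 in PITX1, 1.72 in ACOT1, 1.72 in ZNF688, 2.10 in EIF4EBP3 and 1.55 in TCTA. In the reverse class it was -3.27 in VGF, -2.64 in NR1D1, -2.60 in CIART, -2.01 in HSPG2, -2.03 in KYAT1, -1.99 in HSPA5, -1.67 in SAT1, -1.93 in FCHO1, -1.63 in TSPYL2, -2.02 in AFAP1L1 and -1.60 in CD55. Among the genes that moved alike the sizes differed by -0.84 in SPP1 and by 1.09 in SERINC2. Other large differences were 2.43 in LYSMD2, 2.38 in STAT6 and 2.26 in ANTXR1, and -3.84 in PTK7, -2.46 in DUSP5, -2.36 in BHLHE40 and -2.21 in EPHA2.

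Interferon genes gave 2.21 in OAS3, 1.89 in IFI35, 1.89 in IFITM3 and 1.60 in ISG15, and class I and II antigen presentation -0.75 in CALR and 1.08 in PSMB10 and -1.75 in HLA-DMA. In signalling lists the values were 0.98 in PLAU and -0.66 in CFLAR among NF-kB genes, -1.79 in ZFP36L1, -1.46 in ZFP36, -0.68 in ZFP36L2 and -1.53 in ATF3 among immediate early genes, -1.21 in DUSP1 and 0.90 in SPRED1 among ERK feedback genes, 2.43 in TGFB2 and -1.36 in TGIF1 in the TGF-beta list, -1.17 in CCN1 among YAP targets and -0.75 in TNFRSF10B and 1.13 in TP53I3 among p53 targets.

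In stress and supply lists they were -0.92 in PDIA6, -0.98 in HYOU1 and -1.33 in PDIA4 for the ER, 1.52 in ATF5, 0.94 in ATF4, 1.22 in PSPH and -1.19 in ALDH18A1 for amino acid supply, -0.48 in KARS1 and -0.68 in FARSB for tRNA synthetases, -1.78 in HSPA1B, -1.02 in HSPA8, -0.89 in HSP90AB1 and -0.95 in STIP1 for heat shock, -1.32 in HMOX1, -0.95 in ABCC1, -1.15 in TXNRD1 and -0.75 in FTL for NRF2 targets, 0.88 in FADS2 for lipids and -1.22 in P4HA2 and -1.26 in SLC2A3 for glycolysis. Ribosome and mitochondria gave 1.0 in RPL35, 1.25 in RPL37, 1.05 in RPS14 and 1.16 in FAU, then 1.37 in MRPS11 and 1.11 in MRPL14, then 1.56 in NDUFB2, 1.39 in UQCRQ, 1.40 in NDUFA13 and -0.84 in UQCRC2, and -0.88 in MT-CO1, -1.01 in MT-ND2, -0.83 in MT-ND4 and -0.57 in MT-ND5 for the mitochondrial genome.

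Proteasome genes gave 0.55 in PSMA4 and 0.60 in POMP, DNA replication 2.22 in TK1, 1.46 in TYMS and 1.38 in CDT1, mitosis 1.25 in CDK1 and 1.54 in BIRC5 and lysosomes -1.76 in GM2A and -1.44 in NPC1. The matrix list gave -0.94 in LAMC1, vessel factors -1.57 in NRP2 and 3.74 in NRP1, splicing -1.01 in SRSF4 and 1.32 in HNRNPM and the clock -1.69 in PER1 and -1.51 in CRY1. The BCL2 family gave 1.11 in BID and -0.65 in BCL2L13, autophagy -1.30 in WIPI1 and -0.75 in ATG16L1 and histones 1.0 in H2AZ1 and -0.95 in H2BC12. What lies behind these differences was not tested.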

How the results depend on the processing

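Of the genes named by rule, no called difference of responses changed sign under any alternative run, and 3 calls were lost: GADD45A and ATG7 with the H1299 spread trend given to all libraries, and TARS1 with limma on log2(TPM + 1). Calls were gained for DCBLD2 (without H1299 labelled control replicate 2 or labelled DCBLD2 replicate 1, and with the length and GC term), SEMA6B (with voom weights per line, without that control replicate and with the length and GC term), ASNS and SMC6 (without that control replicate) and CCNA1 (without H1299 labelled control replicate 1). With that H1299 spread trend the called differences were 1560 positive and 1488 negative, the opposite movers 201 (higher in THP-1) and 188, and the like movers 167 up and 170 down. Requiring an absolute log2 value of at least 1 left 524 and 403 differences, 6 and 6 opposite movers, and 4 and 6 like movers. At an adjusted p under 0.01 there were 1588 negative differences, 101 and 71 opposite movers, and 41 and 111 like movers. With limma on log2(TPM + 1), 236 genes fell in THP-1 and rose in H1299, 175 rose in both and 246 fell in both. Leaving out 1 library at a time gave 2044 to 2944 positive and 1752 to 2328 negative differences, 88 to 450 and 59 to 397 opposite movers, 30 to 724 genes up in both and 96 to 354 down in both. DESeq2, its size factors, the filters and the choice of expressed genes left these counts within 1.5 times. The length and GC term, chosen after seeing the data, gave 2518 positive and 2398 negative differences, of which 1986 and 1982 were shared with the counts above, and 1085 opposite and 932 like movers, of which 304 and 274 opposite and 231 and 225 like movers were shared. One fit of all 12 libraries for the changes of both lines gave 548 and 550 opposite and 444 and 479 like movers, of which 307, 268, 207 and 264 were shared.

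Same-numbered libraries did not deviate together: correlations were -0.10, -0.21 and -0.20 in H1299 and 0.027, 0.042 and 0.042 in THP-1, where each control correlated best with its own number. With the replicate number as a block, opposite movers were 252 and 208 and genes down in both 211, with 374 up in both, and 44.1% of the genes called in both lines went in opposite directions. The block also called the difference of DCBLD2 (0.42, adjusted p = 0.0414). Pooling the lines' spreads can leave the SE of a difference below that of its H1299 change, and the small number of libraries limits the precision. At this depth low genes such as TGFB2, at under 5 TPM in every library, rest on few reads.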
